A study of Mus musculus with 194 samples.

Results

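Oligodendrocyte lineage genes were followed as 9 loci in mouse brain, 5 of precursor cells (Olig1, Olig2, Sox10, Pdgfra and Cspg4) and 4 of myelin (Mbp, Mog, Mag and Mobp), out of 21627 protein-coding loci. A locus was the gene body on GRCm38 with 10 kb added on each side, and its level is the number of insertions in it per 1000000 insertions of the animal's table (IPM). Calling cards are transposons that a transposase inserts at TTAA sequences, and a transposase joined to a transcription factor leaves them near the sites that factor binds. An insertion level is not the gene's RNA level. The tables covered 46 animals in 11 groups and 1 pooled table of N2a, a mouse neuroblastoma cell line.

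All mice had received AAV as newborn pups (P0 to P1). Self-reporting transposon (SRT) libraries, in which insertions are read from RNA, came from cortex of 2 C57bl6J mice, injected with viruses that do not depend on Cre, and from 6 Syn1Cre, 6 Syn1CreNeg, 6 GFAPCre and 6 GFAPCreNeg mice. Others came from 3 Frontflip_GFAPCre and 3 Frontflip_GFAPCreNeg mice, a name that the labels do not explain, and from 3 Syn1Cre_SP1_P10 and 4 Syn1Cre_SP1_P28 mice, named for SP1, a transcription factor that binds GC boxes, and for postnatal day 10 or 28. Insertions of 4 Rbp4Cre_TRAP mice came from whole forebrain, and those of 3 BrokenHeart mice from cortical DNA by inverse PCR of pooled barcoded transposons. The Cre lines are named for the promoters that drive Cre: Syn1 is active in neurons, Gfap mainly in astrocytes and also in neural progenitors, and Rbp4 in layer 5 pyramidal neurons. The labels give neither the age of the other groups nor how the groups named Neg relate to the Cre groups, and they do not say which transposase each virus carried.

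Oligodendrocyte precursors arise from neural progenitors, divide, and mature into the cells that wrap axons in myelin. Olig1 and Olig2, neighbouring basic helix-loop-helix factors, and Sox10, an SRY-box factor, specify the lineage. Pdgfra, a growth factor receptor, and Cspg4, the NG2 proteoglycan, mark the precursors at the cell surface. Mbp compacts the myelin membrane, Mog and Mag are surface proteins of the sheath, and Mobp is a further myelin protein. Olig1 and Olig2 are not exclusive to the lineage, since progenitors and some astrocytes also use Olig2.

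Promoters of 3 members are shown because they differ in the GC box that SP1 binds and in the TTAA that an insertion needs. Each covers 250 bases before the start of transcription and 50 after it, from RefSeq on GRCm38.p6, and 6 of the 9 members had an entry. Capitals mark GC boxes (GGGCGG, or CCGCCC on the other strand) and TTAA. The Olig2 promoter is chr16:91225300-91225599 on the plus strand, that of Cspg4 is chr9:56864854-56865153 on the plus strand, and that of Mobp is chr9:120149492-120149791 on the plus strand.
Olig2: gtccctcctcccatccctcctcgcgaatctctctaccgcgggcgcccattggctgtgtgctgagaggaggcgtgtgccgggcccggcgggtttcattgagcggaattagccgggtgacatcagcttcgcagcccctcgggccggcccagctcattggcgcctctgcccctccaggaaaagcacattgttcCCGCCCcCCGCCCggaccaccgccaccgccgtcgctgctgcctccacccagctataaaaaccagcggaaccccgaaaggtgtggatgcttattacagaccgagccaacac
Cspg4: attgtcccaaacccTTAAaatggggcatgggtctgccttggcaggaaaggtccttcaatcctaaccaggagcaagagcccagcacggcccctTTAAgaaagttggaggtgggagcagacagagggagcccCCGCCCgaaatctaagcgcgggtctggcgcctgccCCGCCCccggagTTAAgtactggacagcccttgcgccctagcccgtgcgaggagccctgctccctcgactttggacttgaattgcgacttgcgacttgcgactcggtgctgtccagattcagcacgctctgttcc
Mobp: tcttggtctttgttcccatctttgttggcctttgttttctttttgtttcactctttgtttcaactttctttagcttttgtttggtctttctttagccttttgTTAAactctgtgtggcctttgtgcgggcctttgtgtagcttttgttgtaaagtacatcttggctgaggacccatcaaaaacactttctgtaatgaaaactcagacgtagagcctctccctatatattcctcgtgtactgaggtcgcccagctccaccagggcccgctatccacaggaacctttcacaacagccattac
The Olig2 promoter held 2 GC boxes and 0 TTAA, that of Cspg4 held 2 GC boxes and 3 TTAA, and that of Mobp held 0 GC boxes and 1 TTAA. Of 21044 promoters of this length, 46.7% held a GC box and 48.1% a TTAA. Over all animals the Cspg4 promoter took 5 insertions, 3 at the TTAA at 56864946 and 2 at that at 56864868. The promoters of Olig2 and Mobp took 0.

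Insertions at Olig1, Olig2 and Cspg4 were concentrated at a few positions (the plot along 4 loci). At Olig1 (chr16:91269769-91271939), 45.0% of 1033 insertions fell in 1 window of 2 kb at the gene body, chr16:91269740-91271739. At Olig2 (chr16:91225550-91228677), 66.2% of 671 insertions fell in chr16:91228028-91230027, a window that begins inside the gene and runs past its end. A second cluster at Olig1 lay outside the gene, where 1 position 5005 bp from it took 100 insertions in 33 animals. The most used position at Olig2, 91229034, lies 357 bp beyond the gene and was hit 119 times in 34 animals. At Cspg4 (chr9:56865104-56899870), 50.6% of 802 insertions fell in chr9:56868650-56870649, inside the gene, and 1 position 4388 bp from the start took 215 of them in 33 animals. Mbp (chr18:82475091-82585637) was hit over its whole length instead, with 2304 insertions at 289 positions and 15.0% in its densest 2 kb.

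**Figure D1:**
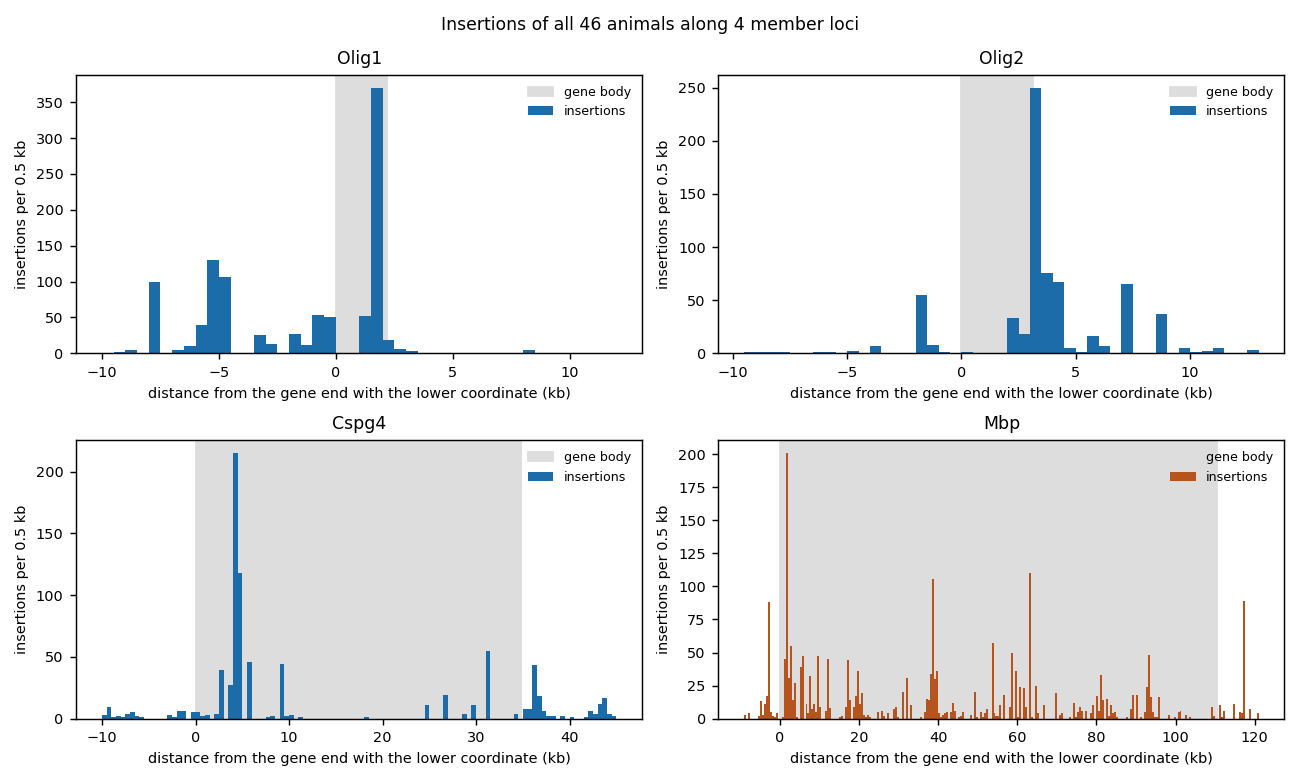
Insertions of all 46 animals per 0.5 kb (vertical axis) against distance in kb from the gene end with the lower coordinate (horizontal axis) for Olig1, Olig2, Cspg4 and Mbp, with the gene body in grey. Olig1 and Olig2 each have 1 tall bar near the upper end of the gene, Olig1 has further ones below the gene, Cspg4 has its tallest inside the gene, and Mbp has bars along its whole length.

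The share in the densest window of Cspg4 ran from 34% in Syn1Cre_SP1_P28 to 77.8% in Frontflip_GFAPCre among the cortex groups with 20 or more insertions there. In Syn1Cre_SP1_P10 it was 0 of 10 insertions. For Olig2 the share ran from 58.3% in C57bl6J to 76.5% in Syn1Cre. Cspg4 overlaps Odf3l1 within its 10 kb margins, Mbp overlaps Zfp236, Mog overlaps Zfp57, Sox10 overlaps Polr2f and Mag overlaps Hamp2, so insertions there cannot be assigned to 1 gene alone. Each cortex was cut into 10 parts that were indexed apart, so a position can count up to 10 times per strand in an animal. The most used Cspg4 position did so 15 times in 1 animal over both strands, and 5 or more times in 23 animals.

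Depth ran from 86842 to 2186743 insertions per cortex animal, except Frontflip_GFAPCreNeg with 2341 to 9601, and from 24408 to 98197 in the Rbp4Cre_TRAP and BrokenHeart animals. Frontflip_GFAPCreNeg held 6 insertions at the 9 loci together and was left out of all tests. The markers of the labelled cells moved as listed here. Summed insertions at 6 inhibitory neuron genes were 496 to 652 IPM in Syn1Cre and 93.0 to 195 in Syn1CreNeg. Those at 12 astrocyte genes were 947 to 2884 in Syn1Cre, 3089 to 3954 in Syn1CreNeg, 1201 to 2365 in GFAPCre and 2174 to 4431 in GFAPCreNeg, so the GFAPCre mice were not the highest of these groups. Replicates are separate mice, so p-values measure the spread between these mice. A level is a share of its table, so it also falls when insertions elsewhere rise. A lower level in bulk tissue cannot tell this from fewer marked cells of a type or fewer insertions per cell. Olig1 held 148 insertions in Syn1Cre and 188 in Syn1CreNeg, whose tables totalled 5573110 and 1768674 insertions. In GFAPCre and GFAPCreNeg it held 269 and 224, with totals of 5201701 and 2575805. The part of these totals in the levels was not tested.

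Sox10, Pdgfra and Mag were hit little everywhere. Over all 46 animals Sox10 took 60 insertions, Pdgfra 77 and Mag 40, and none of the 3 passed the filter on low counts in any comparison. Pdgfra averaged 5.90 ± 2.00 IPM in Syn1Cre (SD, n = 6) with insertions in every mouse, and 0.90 ± 2.20 in Syn1CreNeg (SD, n = 6), where 1 mouse held all 3 insertions. It took 0 insertions in the 7 SP1 mice, which allows up to 2.77 IPM in Syn1Cre_SP1_P28 and 11.03 in Syn1Cre_SP1_P10 by counting error alone. Mag took 0 in Syn1CreNeg, which allows up to 1.70 IPM, against 2.33 ± 1.93 in Syn1Cre (SD, n = 6). Sox10 group means lay between 0 and 4.42 IPM.

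The other 6 members had enough insertions to compare. Per 10 kb of locus, which makes genes of different length comparable, Olig1 was the most densely hit in the Neg groups, at 47.2 ± 7.58 IPM per 10 kb in Syn1CreNeg (SD, n = 6) and 44.6 ± 21.6 in GFAPCreNeg (SD, n = 6). On the same scale Mbp was at 7.52 ± 0.97 in Syn1CreNeg and 6.74 ± 1.94 in GFAPCreNeg. In C57bl6J Olig1 was at 6.03 ± 1.10 and Mbp at 7.59 ± 0.22 per 10 kb (SD, n = 2), and Mog led with 9.11 ± 1.40. The order of loci thus differed between C57bl6J and the Neg groups, with Olig1 above Mog in the Neg groups and below it in C57bl6J. The density of TTAA in each locus was not analysed here, so its part in the order of loci within a group was not tested.

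**Figure D2:**
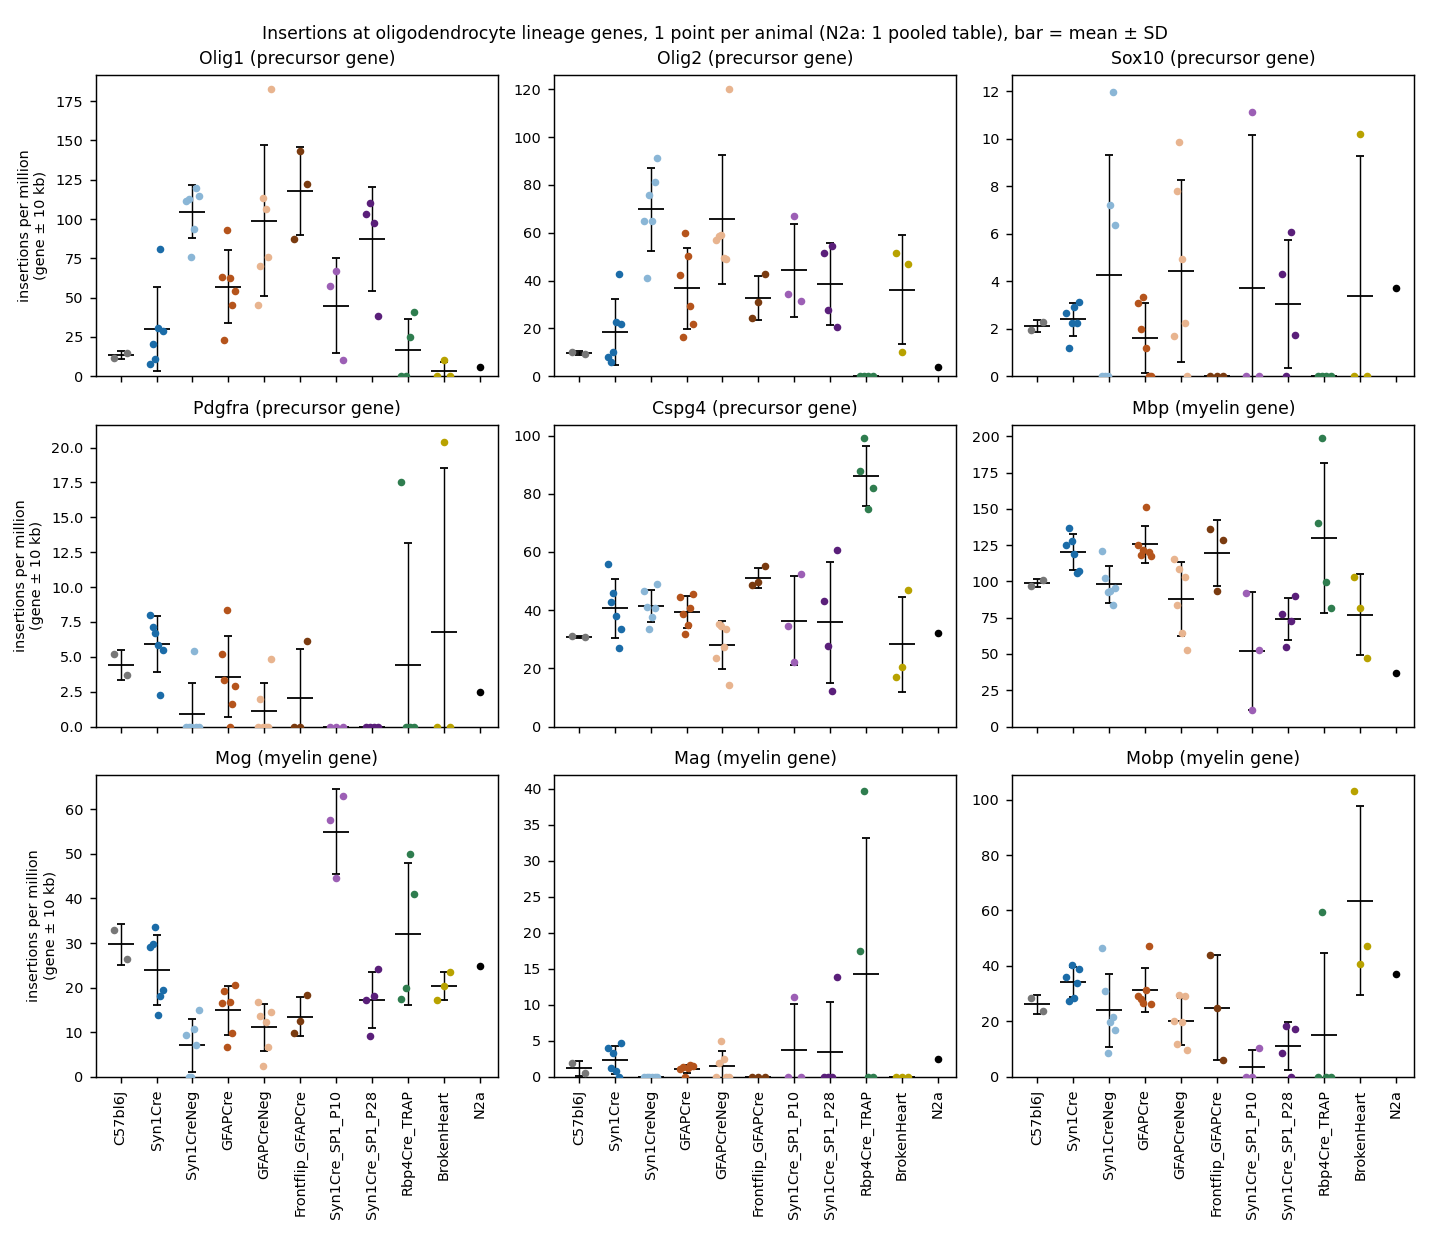
Level in IPM (vertical axis, from 0) at each of the 9 loci in 10 animal groups and in N2a, with 1 point per animal and bars for mean ± SD. The Syn1CreNeg mice sit between 75.6 and 120 at Olig1, and the C57bl6J mice at 11.6 and 15.1, while both groups sit between 30.6 and 48.9 at Cspg4. Frontflip_GFAPCreNeg, with 6 insertions at these loci, is not drawn.

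Olig1 differed widely between cortex groups. Leaving out Frontflip_GFAPCreNeg with 3 insertions, its means in order were 118 ± 28.1 IPM in Frontflip_GFAPCre (SD, n = 3), 105 ± 16.8 in Syn1CreNeg (SD, n = 6), 99.0 ± 47.97 in GFAPCreNeg (SD, n = 6), 87.2 ± 33.2 in Syn1Cre_SP1_P28 (SD, n = 4) and 56.98 ± 23.1 in GFAPCre (SD, n = 6). Below these came 45.0 ± 30.2 in Syn1Cre_SP1_P10 (SD, n = 3, 12 insertions), 30.1 ± 26.7 in Syn1Cre (SD, n = 6) and 13.4 ± 2.44 in C57bl6J (SD, n = 2). Rbp4Cre_TRAP had 2 insertions and BrokenHeart 1. Among all 11 groups, 1 of the 10 steps between neighbours in this order was larger than the larger of both SDs, that from C57bl6J to BrokenHeart. For Olig2 it was 2 of 10, for Cspg4 3 of 10 and for Mbp 0 of 10, so the orders as such separate few neighbours.

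The comparison of Syn1Cre with Syn1CreNeg asks how the place of insertions differs between these groups. They shared no sequencing pool, so Cre and pool cannot be told apart. Olig1 and Olig2 levels were both about 4-fold lower in Syn1Cre, while Mobp was higher and Cspg4 did not pass. Olig1 lay between 7.97 and 81.2 IPM in the 6 Syn1Cre mice with a median of 24.6, and between 75.6 and 120 in the 6 Syn1CreNeg mice with a median of 112. The groups overlapped through 1 Syn1Cre mouse, number 5, at 81.2. The log2 fold change of Olig1 was -2.001 (edgeR SE 0.30, adjusted p = 2.67e-05).

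Olig2 lay between 5.96 and 42.9 IPM in Syn1Cre with a median of 16.0, and between 41.0 and 91.4 in Syn1CreNeg with a median of 70.4. Again mouse 5 alone exceeded the lowest Syn1CreNeg value. In the fit the log2 change was -2.10 (edgeR SE 0.29, adjusted p = 1.29e-05). Mobp averaged 34.2 ± 5.31 IPM in Syn1Cre and 24.0 ± 13.2 in Syn1CreNeg (SD, n = 6 each), and the groups overlapped. The fit gave a log2 change of 0.67 (edgeR SE 0.24, adjusted p = 0.0391). Mbp averaged 120 ± 12.2 and 98.1 ± 12.7 IPM (SD, n = 6 in both), which the fit put at 0.32 without passing (edgeR SE 0.13, adjusted p = 0.0632). Thus 3 of 5 tested members passed, where 31.1% of 8610 tested loci did. The call for Mobp was lost without any 1 of Syn1Cre 3 and 6 and Syn1CreNeg 3, 4, 5 and 6, with edgeR adjusted p from 0.0617 to 0.147, and also with DESeq2 (adjusted p = 0.0786), and those for Olig1 and Olig2 were kept in every leave-one-out fit.

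Other genes of the lineage did not move as a block in this comparison. Of 12 tested further precursor genes 4 rose and 6 fell, with a median log2 fold change of -0.33 beside 0.02 over all loci. Nkx2-2, a homeodomain factor of the lineage, had a log2 fold change of -1.67 (SE 0.32), Bcas1, found in newly forming oligodendrocytes, had -1.48 (SE 0.25) and Ptprz1, a receptor phosphatase, had -1.39 (SE 0.23). Pcdh15, a protocadherin, rose by 0.98 (SE 0.13) and Lhfpl3 by 0.95 (SE 0.18). Of 5 tested further myelin genes, Aspa, which breaks down N-acetylaspartate, had -1.75 (SE 0.33) and Tspan2, a tetraspanin, had 1.21 (SE 0.30), and the other 3 did not pass. Astrocyte markers moved with Olig1 and Olig2: 9 of 10 tested fell, with a median of -1.23. Excitatory neuron markers rose in 3 of 5 tested, with summed levels of 1485 to 1991 IPM in Syn1Cre and 1010 to 1518 in Syn1CreNeg, and inhibitory neuron markers rose in 5 of 5. The part of these markers in the results was not tested.

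The Syn1Cre mice themselves fell into 2 sets. The labels name the samples of mice 1 to 3 in another layout than those of mice 4 to 6, and no sequencing pool held Syn1Cre with a group it is compared with here. Olig1 averaged 13.1 ± 6.38 IPM in mice 1 to 3 and 47.0 ± 29.7 in mice 4 to 6 (SD, n = 3 each), and Olig2 averaged 8.00 ± 2.06 and 29.1 ± 11.9. Mog ran the other way, with 30.9 ± 2.37 in mice 1 to 3 and 17.2 ± 2.90 in mice 4 to 6. Cspg4 at 42.9 to 55.8 IPM, Mbp at 125 to 137 and Pdgfra at 6.72 to 7.97 in mice 1 to 3 were also above mice 4 to 6, at 27.1 to 38.1, 106 to 119 and 2.26 to 5.86. So the sets did not overlap for 6 of the 9 members. How many of all loci separate the sets in this way was not counted, so the split cannot be called particular to the members. Reads per mouse also differed, from 2329351 to 3296669 in mice 1 to 3 and from 9156081 to 15255197 in mice 4 to 6. The part of read depth was not tested. The summed astrocyte genes were 947 to 1063 IPM in mice 1 to 3 and 1251 to 2884 in mice 4 to 6, and their part in the split was not tested.

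**Figure D3:**
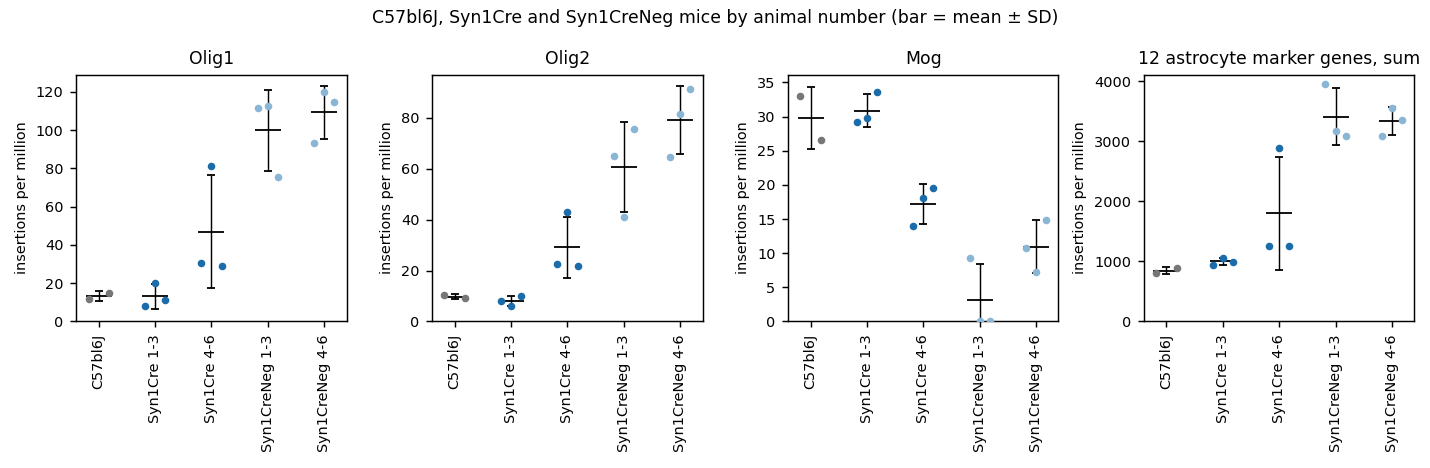
Level in IPM (vertical axes, from 0) at Olig1, Olig2, Mog and the sum of 12 astrocyte genes in C57bl6J, Syn1Cre and Syn1CreNeg mice by animal number, with 1 point per mouse and bars for mean ± SD. Syn1Cre 1 to 3 lie near C57bl6J, and the means of Syn1Cre 4 to 6 lie between those and the Syn1CreNeg means for Olig1, Olig2 and the astrocyte sum.

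Within sets the Cre contrast kept its direction for both Olig genes. Among mice 1 to 3 the log2 change was -2.89 for Olig1 (edgeR adjusted p = 1.07e-06) and -2.92 for Olig2 (edgeR adjusted p = 2.70e-05). Among mice 4 to 6 it was -1.44 (edgeR adjusted p = 0.00183) and -1.56 (edgeR adjusted p = 4.51e-04). Mobp was at 0.30 among mice 1 to 3 (edgeR adjusted p = 0.770) and 0.84 among mice 4 to 6 (edgeR adjusted p = 0.0331). With the set as a block, all 3 passed, Olig1 at -1.79, Olig2 at -1.85 and Mobp at 0.68.

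GFAPCre and GFAPCreNeg were compared in the same way. The Olig2 level was lower and that of Mbp higher in GFAPCre, both by less than 2-fold. Olig2 lay between 16.6 and 59.96 IPM in GFAPCre with a median of 35.8, and between 49.2 and 120 in GFAPCreNeg with a median of 57.7. The groups overlapped, and GFAPCreNeg 6 stood apart at 120. This was fitted as a log2 change of -0.79 (edgeR SE 0.25, adjusted p = 0.0414). Mbp lay between 117 and 151 IPM in GFAPCre and between 52.9 and 116 in GFAPCreNeg, with no overlap. Its log2 fold change was 0.47 (edgeR SE 0.14, adjusted p = 0.0298).

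Olig1 averaged 56.98 ± 23.1 IPM in GFAPCre (SD, n = 6) against 99.0 ± 47.97 in GFAPCreNeg (SD, n = 6) and did not pass, with a log2 fold change of -0.72 (edgeR SE 0.26, adjusted p = 0.0770). So 2 of 5 tested members passed, where 8.12% of 9201 loci did. Without any 1 of GFAPCre 2, 5 and 6 and GFAPCreNeg 1, 2, 3 and 6 the Olig2 call was lost, and without any 1 of GFAPCre 1 and 4 and GFAPCreNeg 2, 4 and 6 that of Mbp. DESeq2 also lost Olig2 (adjusted p = 0.0622), and distinct positions lost Mbp, at 0.35 (edgeR adjusted p = 0.135). The Olig1 call was gained without GFAPCre 3 (edgeR adjusted p = 0.0100) or GFAPCreNeg 1 (edgeR adjusted p = 0.0241). Among mice that shared sequencing pools across both groups, with the pool as a block, neither passed, at -0.84 for Olig2 (edgeR adjusted p = 0.174) and 0.56 for Mbp (edgeR adjusted p = 0.191). This fit held only GFAPCre 4, 5 and 6 and GFAPCreNeg 1, 3, 4 and 6. The part of the smaller number of mice in the lost calls was not tested. Of 12 tested further precursor genes 2 rose, Lhfpl3 and Pcdh15, and 3 fell, Ptprz1, Sox6 and Vcan, and of 4 tested further myelin genes 0 passed the edgeR test (1 at an unadjusted p under 0.05). Astrocyte markers fell in 3 of 11 tested (Gja1, Slc1a2 and Slc4a4). Excitatory neuron markers rose in 2 of 5 tested, with all 5 above 0 and summed levels of 1291 to 1795 IPM in GFAPCre and 908 to 1515 in GFAPCreNeg. The part of both marker lists in the results was not tested.

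The difference between both Cre contrasts was tested as an interaction. The log2 difference, Syn1 minus GFAP, was -1.26 for Olig1 (edgeR SE 0.44, adjusted p = 0.193), -1.30 for Olig2 (edgeR SE 0.42, adjusted p = 0.145) and 0.75 for Mog (edgeR SE 0.53, adjusted p = 0.573). In the edgeR fit 0 of 6 tested members passed (2 at an unadjusted p under 0.05), where 0.692% of 10547 loci did. Without Syn1Cre 5 both Olig genes passed, Olig1 at -1.57 (edgeR adjusted p = 0.00907) and Olig2 at -1.50 (edgeR adjusted p = 0.0152), and likewise without GFAPCre 2, at -1.50 (edgeR adjusted p = 0.0465) and -1.54 (edgeR adjusted p = 0.0283). The larger drop in the share of insertions at Olig1 and Olig2 in the Syn1 line was thus not separated from that in the GFAP line with all mice in the fit. As counts, Olig2 held 98 insertions in Syn1Cre and 133 in Syn1CreNeg, and 177 in GFAPCre and 155 in GFAPCreNeg.

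Set directly against each other, Syn1Cre and GFAPCre showed lower Olig means in Syn1Cre, and 0 of 6 tested members passed the edgeR test (3 at an unadjusted p under 0.05), where 2.15% of 11550 loci did. The log2 change was -1.05 for Olig1 (edgeR SE 0.34, adjusted p = 0.110), -1.03 for Olig2 (edgeR SE 0.34, adjusted p = 0.114) and 0.50 for Mog (edgeR SE 0.23, adjusted p = 0.267). With Syn1Cre 1 to 3 alone all 3 passed, at -2.11 (edgeR adjusted p = 7.27e-05), -2.20 (edgeR adjusted p = 1.83e-04) and 0.83 (edgeR adjusted p = 0.0172). With Syn1Cre 4 to 6 alone none of the 3 did, at -0.45, -0.42 and 0.10. Leaving out Syn1Cre 5 alone gave -1.35 for Olig1 (edgeR adjusted p = 0.00187) and -1.24 for Olig2 (edgeR adjusted p = 0.0105), and leaving out GFAPCre 2 gave -1.28 (edgeR adjusted p = 0.0219) and -1.26 (edgeR adjusted p = 0.0281).

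Of 13 tested further precursor genes 1 passed, Nkx2-2 at -1.22 (edgeR SE 0.28, adjusted p = 0.0171), and 0 of 6 further myelin genes did (3 at an unadjusted p under 0.05). All 11 tested astrocyte markers had a log2 fold change below 0, with 0 passing (3 at an unadjusted p under 0.05), and their part in the result was not tested. The inhibitory neuron markers Gad1, Gad2, Dlx1, Dlx2 and Lhx6, 5 of 5 tested, passed upward.

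C57bl6J mice, which received viruses independent of Cre, had the lowest mean Olig1 and Olig2 levels of the SRT cortex groups. Olig1 was at 11.6 and 15.1 IPM in the 2 mice, and Olig2 at 10.3 and 9.15. Both mice lay below all 6 GFAPCre mice for both genes. The same Syn1Cre and GFAPCre mice serve in several comparisons, which are therefore not independent. Against GFAPCre the log2 change was -1.85 for Olig1 (edgeR SE 0.32, adjusted p = 2.08e-04) and -1.73 for Olig2 (edgeR SE 0.34, adjusted p = 9.71e-04).

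Mog was at 33.0 and 26.5 IPM in C57bl6J, above all GFAPCre mice, which lay between 6.66 and 20.5. In the fit the log2 change was 0.98 (edgeR SE 0.22, adjusted p = 0.00355), and without C57bl6J 1 the call was lost at 0.86 (edgeR adjusted p = 0.0760). So 3 of 6 tested members passed against GFAPCre, where 12.5% of 13252 loci did. Of 13 tested further precursor genes Lhfpl3 rose, and Nkx2-2, Ptprz1 and Tcf7l2 fell. Of 10 tested further myelin genes Tspan2 rose and Aspa fell. Astrocyte markers fell in 8 of 12 tested, with summed levels of 810 to 884 IPM in C57bl6J and 1201 to 2365 in GFAPCre, and their part in the result was not tested. Scaling by total insertions in place of TMM, edgeR's trimmed mean scaling, changed the share of higher among all called loci from 56.1% to 33.6%, and the same 3 members passed with the same signs.

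Against Syn1Cre, 0 of 6 members passed for C57bl6J in the edgeR fit (0 also at an unadjusted p under 0.05), where 0.803% of 14441 loci did. The log2 change was -0.83 for Olig1 (edgeR SE 0.47, adjusted p = 0.457) and -0.72 for Olig2 (edgeR SE 0.44, adjusted p = 0.49). Against Syn1Cre 4 to 6 alone, Olig1 was at -1.38 (edgeR adjusted p = 0.0539) and Olig2 passed at -1.30 (edgeR adjusted p = 0.0411), and against Syn1Cre 1 to 3 alone Olig1 was at 0.25 (edgeR adjusted p = 0.686). All 12 astrocyte markers were below 0, with 0 passing (2 at an unadjusted p under 0.05), and their part was not tested. Without TMM the share of higher among all called loci went from 97.4% to 68.5%, and the median of all loci from -0.02 to -0.16.

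**Figure D4:**
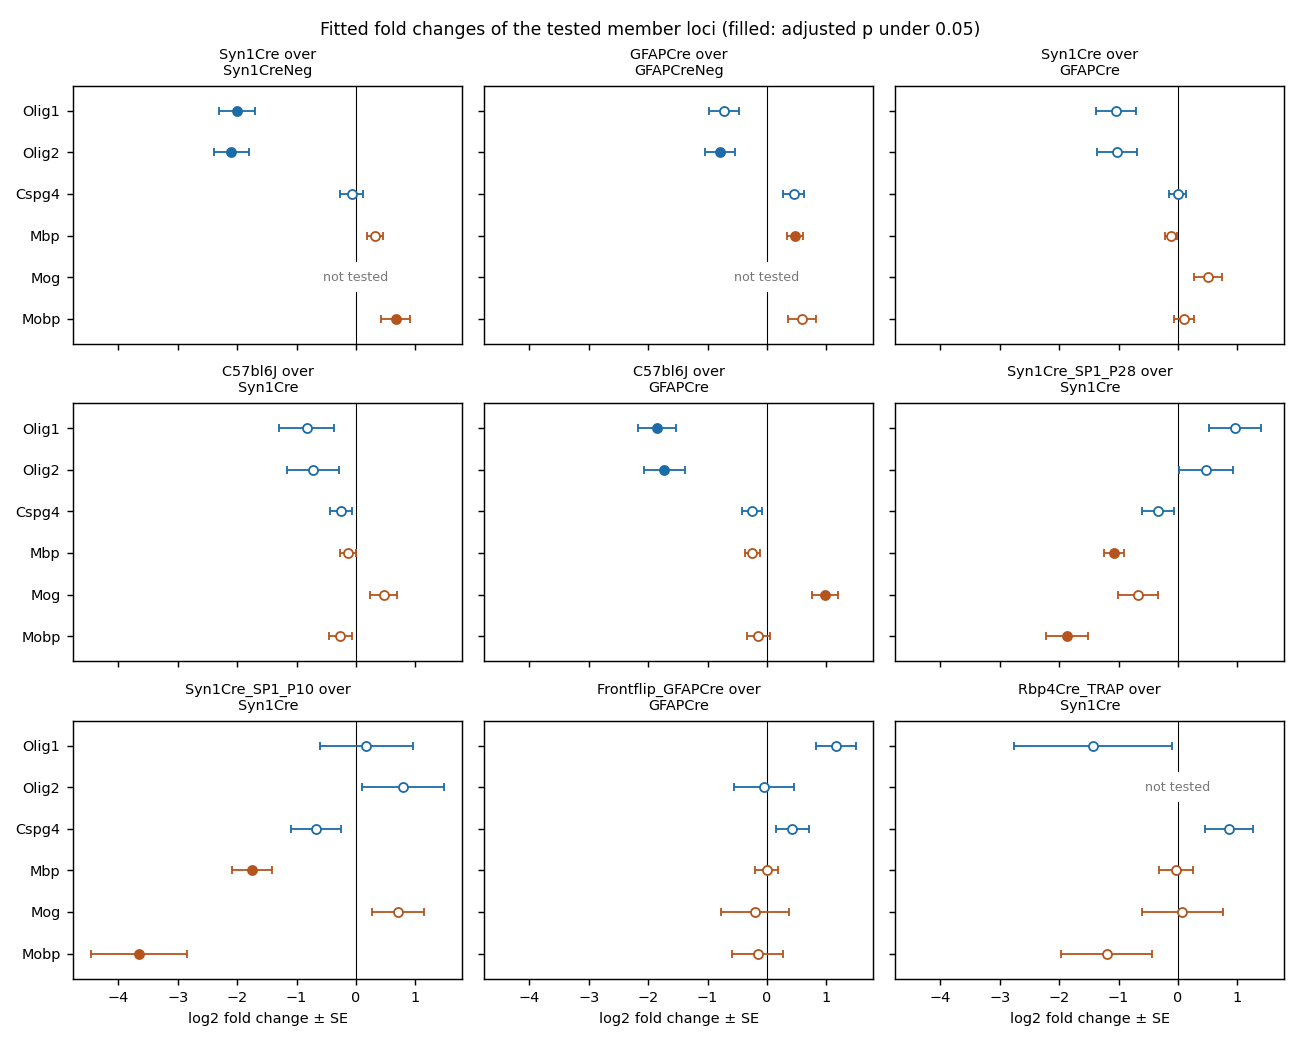
Fitted log2 fold change ± SE (horizontal axis) of the 6 members with enough insertions, 1 panel per comparison, with filled points for adjusted p under 0.05 and precursor genes in blue, myelin genes in orange. Olig1 and Olig2 lie left of 0 in the first 5 panels, and Mbp and Mobp are filled left of 0 in both SP1 panels.

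The SP1 groups were compared with Syn1Cre, to ask where insertions differ between groups with and without SP1 in the name. The age of the Syn1Cre mice is not given, and no sequencing pool was shared. SP1, age and pool therefore cannot be told apart. Depth was 86842 to 95331 insertions per mouse at P10 and 108965 to 577609 at P28, against 443158 to 1364948 in Syn1Cre. In both SP1 groups, Mbp and Mobp were lower, and neither Olig gene passed. Mbp was at 77.6, 55.1, 72.9 and 90.03 IPM in the 4 Syn1Cre_SP1_P28 mice and between 106 and 137 in Syn1Cre, with no overlap. The fit gave a log2 change of -1.08 (edgeR SE 0.17, adjusted p = 1.20e-05). Mobp was at 8.62, 18.4, 0 and 17.3 IPM against 27.4 to 40.3 in Syn1Cre, again with no overlap. This was fitted as a log2 change of -1.87 (edgeR SE 0.35, adjusted p = 9.05e-05).

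At P28, 2 of 6 tested members passed, where 51.5% of 12050 loci did, so the share among the members was below that of all loci. Olig1 was at 103, 110, 97.2 and 38.1 IPM in the Syn1Cre_SP1_P28 mice, the first 3 above all Syn1Cre mice. Its log2 fold change of 0.96 did not pass (edgeR SE 0.43, adjusted p = 0.0677), but it did with total insertions in place of TMM, at 1.45 (edgeR adjusted p = 0.00453). It also passed without Syn1Cre 5, at 1.28 (edgeR adjusted p = 0.00108), without Syn1Cre_SP1_P28 4, at 1.45 (edgeR adjusted p = 0.0132), and against Syn1Cre 1 to 3 alone, at 1.95 (edgeR adjusted p = 1.48e-05). It did not pass against Syn1Cre 4 to 6 alone, at 0.32 (edgeR adjusted p = 0.465). Thinned to the insertions of the shallowest mouse, Mbp was at -0.60 (edgeR adjusted p = 0.108). Without Syn1Cre_SP1_P28 4, Cspg4 also passed, at -0.93 (edgeR adjusted p = 0.0390).

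At P10 Mbp was at 92.1, 11.1 and 52.4 IPM in 14 insertions, below all Syn1Cre mice. Its log2 fold change was -1.75 (edgeR SE 0.33, adjusted p = 1.29e-04). Mobp had 1 insertion in the 3 mice, and its fitted log2 fold change was -3.65 (edgeR SE 0.81, adjusted p = 7.50e-04), a size that rests on that 1 insertion. Mog was at 57.6, 44.6 and 62.9 IPM in 15 insertions, above all 6 Syn1Cre mice.

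The fitted log2 fold change of Mog was 0.70 (edgeR SE 0.44, adjusted p = 0.205), and 1.23 (edgeR adjusted p = 0.0412) with total insertions in place of TMM. It passed also against Syn1Cre 4 to 6 alone, at 0.98 (edgeR adjusted p = 0.0447). Olig2 was at 34.5, 66.8 and 31.5 IPM in 12 insertions, with a log2 fold change of 0.79 (edgeR SE 0.69, adjusted p = 0.375). Against Syn1Cre 1 to 3 alone Olig2 passed at 1.88 (edgeR adjusted p = 0.00247), and with distinct positions at 1.43 (edgeR adjusted p = 0.0448). Distinct positions lowered the summed precursor insertions from 520 to 321 in Syn1Cre and left them at 35 in Syn1Cre_SP1_P10. The part of this unequal reduction in the call was not tested. At P10 as well 2 of 6 members passed, where 40.7% of 12784 loci did.

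Both SP1 comparisons depend on the scaling. TMM left the median log2 fold change of all loci at -0.06 for P28 and -0.26 for P10, and total insertions gave 0.42 and 0.27, with the share of higher among called loci going from 50.9% to 80.4% and from 49.3% to 76.1%. Mbp and Mobp stayed below 0 and past the threshold under both scalings in both groups. The SP1 mice also stood apart in marker genes. Summed excitatory neuron genes were 679 to 899 IPM at P28 and 446 to 725 at P10 against 1485 to 1991 in Syn1Cre, and summed inhibitory neuron genes were 767 to 991 and 1175 to 1542 against 496 to 652. Summed astrocyte genes were 1487 to 3056 at P28 and 1353 to 1612 at P10 against 947 to 2884, and the part of these markers in the results was not tested.

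Further lineage genes passed in both directions in the SP1 comparisons. At P28, 1 of 13 tested precursor genes passed upward and 4 downward, and 1 of 6 tested myelin genes upward and 3 downward, where 51.5% of all loci passed. Among the precursor genes Pcdh15 was at -1.56 (SE 0.17), Lhfpl3 at -1.27 (SE 0.21) and Enpp6 at -0.89 (SE 0.33). Among the myelin genes Ugt8a, which makes a myelin galactolipid, was at -1.42 (SE 0.41) and Gpr37, a receptor of mature oligodendrocytes, at -0.70 (SE 0.28). At P10, where 40.7% of all loci passed, 1 of 13 precursor genes passed upward and 3 downward (Pcdh15, Lhfpl3 and Myt1), and 2 of 6 myelin genes passed upward and 0 downward, with Tspan2 at 1.04 (SE 0.34). Both SP1 groups were compared with the same 6 Syn1Cre mice, so the contrasts are not independent.

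Between the SP1 ages only Olig1 had enough insertions, at 57.6, 66.8 and 10.5 IPM at P10 and the 4 values above at P28. Its log2 fold change, P28 over P10, was 0.87 (edgeR SE 0.51, adjusted p = 0.267), so 0 of 1 tested member passed the edgeR test (0 also at an unadjusted p under 0.05), where 11.1% of 3458 loci did, 66.5% of them upward with TMM and 44.4% without it. Sequencing pools held mice of both ages and joined all 7 mice, so the pool could not be a block and was no term of the fit. Mog was untested here, and its 3 P10 mice, at 44.6 to 62.9 IPM, lay above the 4 P28 mice, at 9.18 to 24.2.

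Within 1 kb of a gene start, where SP1 sites are frequent, only Olig1 of the members was tested, and since the gene table gives it no strand, both gene ends were used. By TMM, 63.8% of 3182 gene starts passed at P28 and 59.3% of 3229 at P10, and 0 of 1 member did in either edgeR fit (0 also at an unadjusted p under 0.05). Its level there was 50.9 ± 29.5 IPM at P28 (SD, n = 4), 22.4 ± 12.03 at P10 (SD, n = 3) and 14.9 ± 16.5 in Syn1Cre (SD, n = 6). The TMM fit turned this around, to a log2 fold change of -0.29 at P28 (edgeR SE 0.41, adjusted p = 0.549) and -1.38 at P10 (edgeR SE 0.71, adjusted p = 0.0939). With total insertions it was 1.62 at P28 (edgeR adjusted p = 0.00121) and 0.84 at P10 (edgeR adjusted p = 0.377), while the median over all gene starts went from 0.12 to 1.94 and from 0.03 to 2.27 and the share of higher among called starts from 53.2% to 98.5% and from 49.0% to 98.1%. At P10 the TMM value passed without Syn1Cre 1, at -1.67 (edgeR adjusted p = 0.0317), or Syn1Cre 3, at -1.70 (edgeR adjusted p = 0.0321). On the scale of total insertions the change in the Olig1 windows was below that of the median start at both ages. The Olig1 gene is only 2.17 kb long, so the windows at both ends cover most of it. They hold its most used position, 345 bp from the upper end, so the value is not that of a start alone. Of the 21627 loci, 17273 had a known start.

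In Frontflip_GFAPCre, Olig1 was at 87.6, 143 and 122 IPM, against 23.2 to 93.3 in GFAPCre, and the groups overlapped. The log2 change was 1.16 (edgeR SE 0.33, adjusted p = 0.0691), and 0 of 6 members passed the edgeR test (1 at an unadjusted p under 0.05), where 1.75% of 10523 loci did, 85.9% of them upward with TMM and 75.5% without it. Without GFAPCre 3 Olig1 passed at 1.34 (edgeR adjusted p = 0.00564), and with distinct positions at 1.32 (edgeR adjusted p = 0.00835). It also passed without the filter, at 1.08 (edgeR adjusted p = 8.63e-04), and with DESeq2, at 1.13 (adjusted p = 0.0423). Distinct positions lowered the summed precursor insertions from 678 to 396 in GFAPCre and from 106 to 78 in Frontflip_GFAPCre, and the part of this in the call was not tested. Cspg4 was at 48.6, 49.8 and 55.1 IPM, above all 6 GFAPCre mice, at 31.6 to 45.5. Olig2 was at 24.3, 31.1 and 42.8 IPM against 16.6 to 59.96 in GFAPCre. Astrocyte markers rose in 4 of 12 tested (Slc4a4, Slc1a2, Slc1a3 and Atp1b2), with sums of 2476 to 3610 IPM, and their part in the result was not tested. No further precursor gene of 13 and no further myelin gene of 7 passed the edgeR test (3 and 2 at an unadjusted p under 0.05).

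Rbp4Cre_TRAP tables were shallow. Cspg4 was at 87.7, 99.3, 74.9 and 81.9 IPM in 15 insertions, 11 of them in its densest 2 kb. These values lay above all 6 Syn1Cre mice, which were between 27.1 and 55.8. In the fit the log2 change of Cspg4 was 0.85 and did not pass (edgeR SE 0.41, adjusted p = 0.303). How many of all loci separate these groups in this way was not counted. Olig2 took 0 insertions, which allows up to 17.5 IPM, and Olig1 took 2, with a log2 fold change of -1.44 (edgeR SE 1.33, adjusted p = 0.660). Mobp took 3, all in 1 mouse, with -1.20 (edgeR SE 0.76, adjusted p = 0.467). In the edgeR fit 0 of 5 members passed (1 at an unadjusted p under 0.05), where 2.09% of 10690 loci did. Without TMM the median of all loci went from -0.31 to -0.07 and the share of higher among called loci from 8.52% to 42.6%, and 0 members passed there too. Of 12 tested further precursor genes Sox6 and Ptprz1 fell, and of 10 tested astrocyte markers Slc1a3 and Slc4a4 fell. The summed astrocyte genes were 397 to 901 IPM, with Aldoc at 0, and their part was not tested. The tissue was whole forebrain, and TRAP stands in the sample names of this group alone. Region, any step that TRAP names and Cre line therefore cannot be told apart.

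BrokenHeart tables, read from DNA, held 1 to 16 insertions at each member except Mag, which took 0, and none passed the filter on low counts. Among all loci 39.9% of 1878 passed against C57bl6J. Mobp was at 103, 40.7 and 47.0 IPM in 12 insertions, above both C57bl6J mice at 28.5 and 23.8. Olig2 was at 51.5, 10.2 and 47.0 IPM in 6 insertions, and Mbp at 103, 81.5 and 47.0 in 16. Readout and virus differ together between these groups and cannot be told apart. In N2a cells, 1 pooled table, Mbp and Mobp were each at 37.2 IPM in 30 insertions, Cspg4 at 32.2 and Olig1 at 6.20 in 5.

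The precursor loci set against the myelin loci sum up the pattern as a description, without a test. The log2 ratio of summed insertions in the 5 precursor loci over the 4 myelin loci averaged 0.77 ± 0.31 in Syn1CreNeg and 0.69 ± 0.77 in GFAPCreNeg (SD, n = 6 each), and 0.63 ± 0.60 in Syn1Cre_SP1_P28 (SD, n = 4). It averaged -0.37 ± 0.45 in GFAPCre and -0.93 ± 0.53 in Syn1Cre (SD, n = 6 each), and -1.36 ± 0.07 in C57bl6J (SD, n = 2). All 6 Syn1CreNeg mice lay above all 6 Syn1Cre mice. Over gene bodies without the 10 kb margins it was -0.16 in Syn1CreNeg and -1.42 in Syn1Cre. The sum is carried by different genes: Cspg4 made up 50.9% of precursor insertions in C57bl6J, 43.5% in Syn1Cre and 18.05% in Syn1CreNeg, where Olig1 made up 45.9%.

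**Figure D5:**
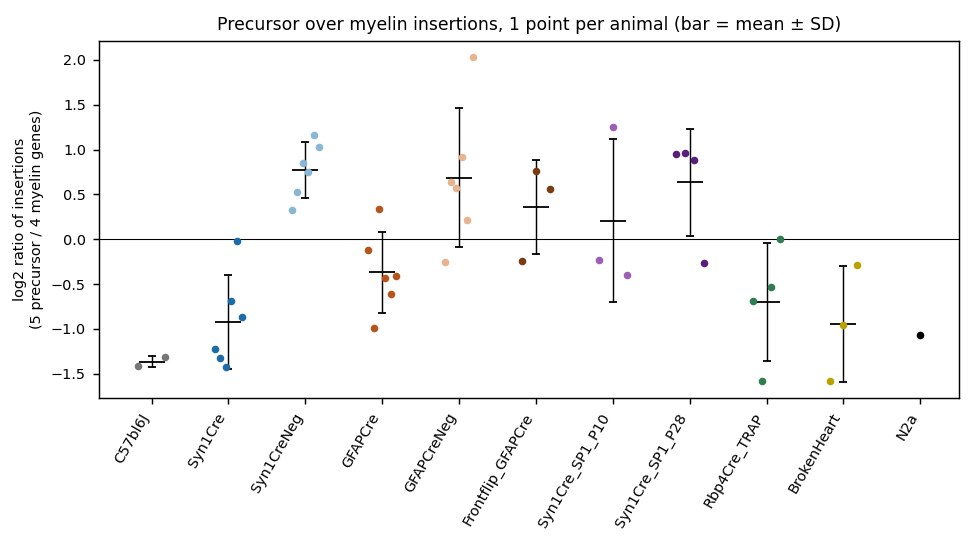
Log2 ratio of insertions at the 5 precursor loci over those at the 4 myelin loci (vertical axis) in 10 animal groups and N2a, with 1 point per animal and bars for mean ± SD. The Syn1CreNeg mice lie between 0.33 and 1.16, above the Syn1Cre mice, which lie between -1.42 and -0.02.

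Genes on other chromosomes with the pattern most like Olig2 over the 11 group means, by Pearson correlation of log2(IPM + 1), were Folh1 (r = 0.98), Aqp4 (0.98), Alg14 (0.98), Derl1 (0.97) and Bcl2 (0.97). Aqp4 is the water channel of astrocyte end-feet. For Mbp they were Rnf130 (r = 0.97), Ndrg3 (0.94), Nell2 (0.94), Fam155a (0.94) and Iqcj (0.94). Without Frontflip_GFAPCreNeg, the group with the fewest insertions, Aqp4 and Folh1 stayed among the 5 for Olig2, joined by Tex12, Zfp870 and Sox6, and Rnf130 and Nell2 stayed for Mbp, joined by H2ac12, H2bc12 and Spag6. Olig1 and Olig2 correlated at r = 0.57 over the 11 groups and 0.46 without that group. The points share the depth and Cre contrast of each group, so these values describe and test nothing.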

How the data were processed

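The 47 deposited tables list insertions, 1 row each, with their count of reads, strand and barcode. The authors combined the 10 cortex parts of an animal into 1 table, per the labels' protocols, and counts are raw as deposited. Novoalign, Bowtie2 and mm10 are named in the submitters' processing notes, with versions not given in the sources used here. Rows, not reads, were counted in protein-coding loci (gene ± 10 kb, GRCm38) and at gene starts (± 1 kb). Each comparison was fitted across all loci with edgeR 4.0.16 in R 4.3.3 (filterByExpr, TMM on table totals, quasi-likelihood test, Benjamini-Hochberg, threshold 0.05), and SE was taken from the F statistic. Ratios added 0.5 to both sums. A count of 0 was given the upper limit of 3 insertions, which covers counting error only. The members and gene lists were chosen with earlier results of these data known. All 9 members were named. In the other lineage lists up to 3 highest and 3 lowest called genes were named, and markers only where called. Some genes that this rule selects are not reported here. The script was tested on simulated data with 200 loci changed 3-fold. In Syn1Cre against GFAPCre 90.5% were recovered and 9.5% of calls were false. In Syn1Cre against Syn1CreNeg these shares were 81.5% and 6.86%. In Syn1Cre_SP1_P10 against Syn1Cre they were 38.5% and 3.75%, and in Rbp4Cre_TRAP against Syn1Cre 31.5% and 12.5%. So false calls could exceed the share that the threshold of 0.05 sets. DESeq2 1.42.0, other scalings, filters, windows, thinning, replicate blocks and leaving out each mouse were the alternatives.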

Additional observations from a re-analysis of the deposited data

Results flagged for a closer look

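Of 56 groups of 4 to 10 animals tested for a value far from the others, 10 had one. Chance alone would mark about 1 group in 20 for levels well above 0. That rate does not hold where all other animals were at 0, since 1 insertion then marks the group. The 10 can therefore not be set against that rate. At Olig1, Syn1Cre 5 was at 81.2 insertions per 1000000 (IPM), with the next mouse at 30.8. At Olig2, GFAPCreNeg 6 was at 120, with the next at 59.1. Pdgfra was at 5.39 in Syn1CreNeg 4 (3 insertions) and at 0 in the other Syn1CreNeg mice, and it was at 17.5 in Rbp4Cre_TRAP 1 from 1 insertion. Mbp was at 151 in GFAPCre 4, with the next at 125, and Mobp was at 47.1 in GFAPCre 5, with the next at 31.2. Mag was at 0 in GFAPCre 3, with the next at 1.03, and at 13.9 in Syn1Cre_SP1_P28 4 (8 insertions), against 0 in the other Syn1Cre_SP1_P28 mice. Mobp was at 59.6 in Rbp4Cre_TRAP 2 (3 insertions), against 0 in the other Rbp4Cre_TRAP mice. The log2 ratio of precursor over myelin insertions was -0.26 in Syn1Cre_SP1_P28 4, with the next at 0.88.

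Syn1Cre 5 also had the highest summed astrocyte genes of the Syn1Cre mice, at 2884 IPM, and GFAPCreNeg 6 that of the GFAPCreNeg mice, at 4431. Syn1Cre_SP1_P28 4 had the lowest of its group, at 1487. The part of these sums in the values above was not tested.

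The N2a table, outside all comparisons, held member insertions above the 3.72 IPM that a count of 0 allows. Olig1 was at 6.20 (5 insertions), Cspg4 at 32.2 (26 insertions), Mog at 24.8 (20 insertions), and Mbp and Mobp each at 37.2 (30 insertions).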

How the results depend on the processing

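Olig1 and Olig2 were below 0 and past the threshold in Syn1Cre against Syn1CreNeg under every alternative run, between -2.89 and -1.44 and between -2.92 and -1.56. Over all single-gene values, 483 alternatives kept direction and side of the threshold, 37 gained the threshold, 28 lost it and 8 turned direction. Counts of members called that moved by more than 1.5 times, or to or from 0, are given with the main count first. The number of members tested and the share of all loci called in each setting are not given beside them. The counts therefore describe stability and are no result about the members. For Syn1Cre against GFAPCre (0) it was 1 without the low-count filter and 3 with Syn1Cre 1 to 3 only. For GFAPCre against GFAPCreNeg (2) it was 1 with DESeq2, with distinct positions and with the gene body alone, and 0 with shared pools as a block. For Syn1Cre_SP1_P28 (2) it was 4 without the filter and with distinct positions, 1 with the gene body, 0 thinned and 5 against Syn1Cre 1 to 3. For Syn1Cre_SP1_P10 (2) it was 1 with the gene body and 1 thinned. Mobp passed in every alternative that tested it, 17 at P28 and 15 at P10. With the gene body and when thinned it was not tested, which lowers those counts. For C57bl6J against Syn1Cre 4 to 6 it was 1 in place of 0, and against GFAPCre with the gene body 1 in place of 3. For Frontflip_GFAPCre (0) it was 1 with DESeq2, without the filter and with distinct positions. For gene starts at P28 (0) it was 1 within 2 kb and 1 without TMM. Smaller moves were from 3 to 2 for Syn1Cre against Syn1CreNeg with DESeq2, the gene body or the replicate block, from 2 to 3 for GFAPCre against GFAPCreNeg without the filter or with the replicate block, and from 2 to 3 at P28 and P10 without TMM or with the replicate block and at P10 with distinct positions and against Syn1Cre 1 to 3. Leaving out each mouse in turn gave 0 to 2 for Syn1Cre against GFAPCre and for the interaction, 0 to 3 for GFAPCre against GFAPCreNeg, 2 to 4 for Syn1Cre against Syn1CreNeg and for Syn1Cre_SP1_P28, 2 to 3 for C57bl6J against GFAPCre, and 0 to 1 for Frontflip_GFAPCre and for gene starts at P10. The other counts did not move when a mouse was left out.

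The log2 precursor over myelin ratio with distinct positions was -1.57 in C57bl6J and 0.36 in Syn1CreNeg. With the gene body alone it was -1.70 in C57bl6J, -0.16 in Syn1CreNeg, -1.08 in GFAPCre, -0.21 in GFAPCreNeg, -0.31 in Frontflip_GFAPCre and -0.19 in Syn1Cre_SP1_P28. Values that turned were Olig1 in C57bl6J against Syn1Cre 1 to 3, at 0.25, and the Olig1 gene start, at 0.040 within 2 kb, 1.62 without TMM, 0.09 without Syn1Cre 5 and 0.38 without Syn1Cre_SP1_P28 4 at P28 (-0.54 to 0.38 over all mice left out), and 0.84 without TMM at P10. The cause was not tested for these changes.

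The labels do not say that equal replicate numbers pair the animals, and same-numbered deviations correlated between -0.22 and 0.17. Counting error at loci with few insertions also lowers such correlations, so these values cannot exclude a pairing. With the replicate number as a block, Olig1 and Olig2 in C57bl6J against Syn1Cre turned to 0.10 and 0.70, and the count for Frontflip_GFAPCre was 1 (Olig1 at 1.09). Counts over all loci moved by more than 1.5 times in each comparison under 1 or more settings. They went from 248 to 1634 with Syn1Cre 1 to 3 and to 74 with Syn1Cre 4 to 6 against GFAPCre, from 747 to 37 with pools as a block, from 116 to 1328 for C57bl6J against Syn1Cre 1 to 3, to 54 without TMM and to 1109 with the replicate block, from 1660 to 675 with DESeq2 for C57bl6J against GFAPCre, from 385 to 167 with DESeq2 between the SP1 ages, from 6206 to 1615 and 5204 to 1839 when thinned, from 223 to 129 without TMM for Rbp4Cre_TRAP, from 184 to 307 without the filter for Frontflip_GFAPCre and from 2030 to 265 and 1914 to 371 for gene starts with distinct positions. At P10, 1 insertion is worth over 10 IPM, which limits all member values there.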
